A study of Mus musculus with 8 samples.

Results

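The genes described here make and sense leukotrienes and prostaglandins, in mouse hematopoietic cells that lack Picalm or carry human PICALM. The members were 10 named genes, and each was read from every probe set whose sole gene symbol in the platform annotation is that gene. Of these, 8 genes had 12 probe sets among the 22626 non-control probe sets of the array, which together name 12393 genes. The other 2, Alox5 and Ptgs1, were not analysed here, because no probe set in the annotation used carried their symbol, alone or with others. Alox5 encodes 5-lipoxygenase, the enzyme that begins leukotriene synthesis, and Ptgs1 encodes the constitutive cyclooxygenase, so these steps have no value below.

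PICALM is a clathrin assembly protein. The cells came from fetal liver of day 14 embryos of the Picalm fit1-5R mouse, whose mutation leaves a non-functional truncated protein, on the B6(Cg)-TyrC-2J/J background. Every culture, knockout or rescued, also carried a retroviral MLL-ENL fusion, a leukemia oncogene that immortalizes progenitors, and all grew with IL-3 at 5 ng/ml and SCF at 50 ng/ml. The lines PICALM6A, PICALM6B, PICALM6D and PICALM84 (6A, 6B, 6D and 84 in what follows) were each transduced with human PICALM in the MSCVneo retrovirus (rescued) or with the empty MSCVneo vector (knockout), giving 4 arrays of each kind and 1 pair per line. PICALM was driven by a retroviral promoter, so its level need not match the normal one. No Picalm probe set was analysed here, so no RNA level of it is given. The study shows an immunoblot of PICALM protein for representative knockout and rescued cells. Values are log2 intensities after RMA (robust multi-array averaging), and the array medians lay between 7.32 and 7.35. Of the markers of the labelled cells, the 8 hematopoietic genes had a mean level of 10.98 to 11.28 on the 8 arrays. The 7 measured hepatocyte genes had one of 5.84 to 5.92 on the knockout arrays and 5.88 or more on the rescued arrays. Intensities of different probe sets are not on 1 scale and carry no detection call, so these values do not test the label. Both arrays of line 84 stood apart from the other 6 in several genes, and a value without a line is given where leaving it out moves a difference by over 1.5 times.

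Leukotrienes and prostaglandins are lipid messengers made from arachidonic acid, which phospholipases free from membranes. In myeloid cells 5-lipoxygenase, with its helper FLAP, makes leukotriene A4. Lta4h then turns this into leukotriene B4, a neutrophil attractant sensed by Ltb4r1, while Ltc4s joins it to glutathione to make the cysteinyl leukotrienes of mast cells and eosinophils. Cyclooxygenases send the same precursor to prostaglandin H2, from which Hpgds makes prostaglandin D2 in mast cells and related cells, and Ptger4 is a receptor for prostaglandin E2.

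The sequence upstream of the start is shown for the members with the lowest p values or the largest differences in the comparison below: Lta4h at chr10:93453146-93453395 on the plus strand, Ltb4r1 at chr14:55765712-55765961 on the plus strand, and Hpgds at chr6:65144731-65144980 on the minus strand. These are the 250 bases before each start in RefSeq, build GRCm38.p6, written 5′ to 3′ along the gene. Capitals mark matches, on either strand, to GAGGAA (the core bound by PU.1), GGGCGG (the GC box) or TTGCNNAA (a C/EBP pattern), factors or elements found at many myeloid promoters.
Lta4h: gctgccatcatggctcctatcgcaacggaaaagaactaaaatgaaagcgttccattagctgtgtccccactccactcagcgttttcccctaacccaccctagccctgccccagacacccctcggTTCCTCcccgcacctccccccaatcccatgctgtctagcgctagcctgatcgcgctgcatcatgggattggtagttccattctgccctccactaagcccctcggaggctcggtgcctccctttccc
Ltb4r1: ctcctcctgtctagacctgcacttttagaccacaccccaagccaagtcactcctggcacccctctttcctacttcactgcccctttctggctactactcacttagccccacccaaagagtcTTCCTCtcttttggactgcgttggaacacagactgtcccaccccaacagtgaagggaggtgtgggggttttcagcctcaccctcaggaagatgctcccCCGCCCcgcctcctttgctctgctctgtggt
Hpgds: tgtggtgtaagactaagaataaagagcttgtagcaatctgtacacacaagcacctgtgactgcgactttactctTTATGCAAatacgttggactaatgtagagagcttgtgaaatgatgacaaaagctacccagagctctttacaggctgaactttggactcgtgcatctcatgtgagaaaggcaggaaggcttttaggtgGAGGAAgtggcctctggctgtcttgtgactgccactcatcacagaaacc
The PU.1 core was present in all 3 windows, 126 bases before the start of Lta4h, 129 before Ltb4r1 and 49 before Hpgds. Ltb4r1 also held a GC box 31 bases before its start, and Hpgds a C/EBP pattern. None of the capitals in these windows belong to overlapping matches. Over all 32851 RefSeq windows of this length, 23.3% held the PU.1 core, 32.7% the GC box and 9.56% the C/EBP pattern. Of the 6 measured members with a window, 4 held the PU.1 core, 3 the GC box and 2 the C/EBP pattern. A match of letters is a description and does not show that a factor binds there.

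The comparison asked whether the genes differ between PICALM-rescued and Picalm-knockout cells of the same line. It was fitted with limma on all 22626 probe sets with the line as a block, and a probe set was called at a Benjamini-Hochberg false discovery rate of 12.3%. No member passed. The call was rare throughout, at 0.0796% of all probe sets (1 higher and 17 lower in rescued cells). At an unadjusted p under 0.05 there were 8 of the 12 member probe sets, 5 of them higher in rescued cells, against 12.5% of all probe sets. The members were chosen with earlier results of these data known. The study also lists Ltb4r1, Alox5ap and Hpgds from these arrays, so these shares are a description and not a test. The members' differences therefore stand below as values with their limma intervals, which also borrow variance from all probe sets, and none is called a change.

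The leukotriene members were mostly higher in rescued cells, while Hpgds, of the prostaglandin branch, was lower. All measured leukotriene members, Alox5ap, Lta4h, Ltc4s and Ltb4r1, had a probe set whose rescued array exceeded the knockout array in every one of the 4 lines, and 5 of their 6 probe sets did so. Over the 12 member probe sets 5 were higher in all 4 lines, where 12.0% of all probe sets were, and 3 were lower in all 4 lines, where 11.8% were. The median difference over the 12 was 0.12 on the log2 scale, and over the 6 leukotriene probe sets 0.26, where the median of all probe sets was 0.00269. Probe sets of 1 gene read the same transcripts and are not independent. Because the members were chosen with earlier results known, these counts and medians are a description too.

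**Figure D1:**
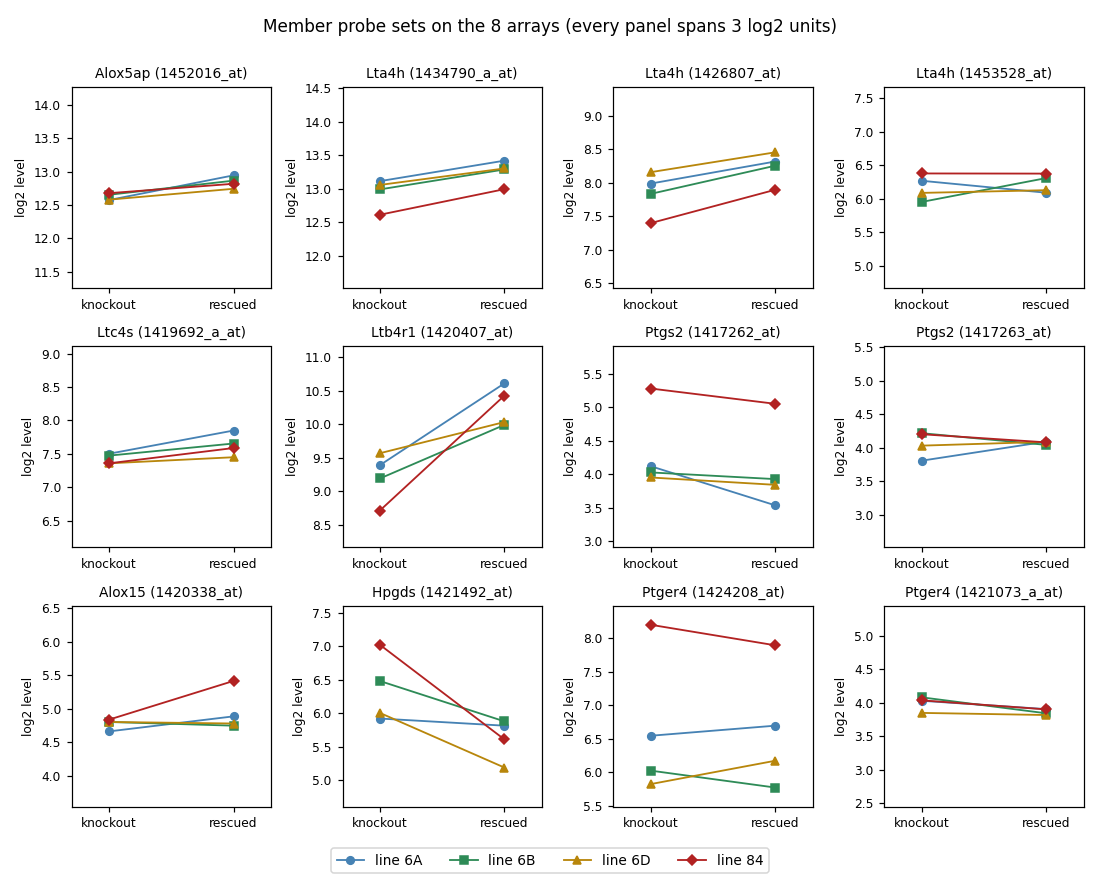
Log2 level (y axis, each panel spanning 3 log2 units) of the 12 member probe sets in the knockout and the rescued array (x axis) of lines 6A, 6B, 6D and 84, joined within a line. Ltb4r1 and Alox5ap lie higher, and Hpgds lower, on every rescued array than on any knockout array, and line 84 stands apart for Ptgs2 (1417262_at) and Ptger4 (1424208_at).

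Ltb4r1, the high-affinity receptor for leukotriene B4, had the largest difference of the members. Its probe set 1420407_at read 9.39, 9.19, 9.56 and 8.71 in knockout lines 6A, 6B, 6D and 84, and 10.61, 9.99, 10.03 and 10.43 in the rescued arrays of the same lines. Every rescued array was above every knockout array, a separation seen in 1.88% of all probe sets. The mean difference was 1.05 on the log2 scale (SE 0.20, 95% interval 0.55 to 1.55, n = 4 lines), a 2.07-fold higher level in rescued cells, with an adjusted p of 0.268 by limma. The gap was smallest in line 6D, at 0.47, and largest in line 84, at 1.72. An exact permutation test that ignores the pairing by line, two-sided, gave p = 0.0286, the smallest that 4 against 4 allows, while an exact test by sign changes of the 4 pairs cannot go below 0.125. Without line 84 the difference was 0.83. The study lists Ltb4r1 among genes it chose on these same arrays, so its direction here is not independent evidence.

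The neutrophil marker list was also higher in rescued cells, beside Ltb4r1. The mean log2 level of its 10 measured genes of 10 was 8.30 to 9.20 in the knockout arrays and 9.63 to 10.79 in the rescued arrays. Of the 10, 7 were higher in rescued cells in all 4 lines, where 12.0% of all probe sets were. The others, Mmp8, Mmp9 and Cxcr2, had mean differences of 0.33, 0.17 and 0.21. Mmp8 was lower in rescued 6A, Mmp9 in rescued 6D and 84, and Cxcr2 in rescued 6B. Camp, which encodes the antimicrobial peptide CRAMP, was 8.22, 8.08, 8.87 and 6.85 in knockout 6A, 6B, 6D and 84 and 12.45, 9.25, 10.03 and 9.59 in rescued cells. Camp had the largest mean difference of the 10. None of the 10 was called, and the study lists Camp as well. How far a different share of cells resembling neutrophils bears on the Ltb4r1 value was not tested, and in bulk samples fewer cells of a type and less RNA per cell cannot be told apart. Over the 8 arrays the probe sets most like Ltb4r1 were those of Nsdhl (Pearson r = 0.981), Pmvk (r = 0.978) and Ccpg1 (r = 0.970). With 63 genes above r = 0.9, and the 8 arrays sharing 2 groups and 4 lines, this is a description only. The study also lists Nsdhl and Pmvk.

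Lta4h, the hydrolase that makes leukotriene B4, had the most even difference between lines. Its bright probe set 1434790_a_at, at the 98.3rd percentile of mean level, read 13.11, 12.99, 13.06 and 12.61 in knockout 6A, 6B, 6D and 84, and 13.42, 13.29, 13.30 and 12.99 in rescued cells. Within a line the gap stayed between 0.25 and 0.38, although the groups overlap because line 84 lies lowest in both. The mean difference was 0.31 (SE 0.04, 95% interval 0.20 to 0.42, n = 4 lines), a 1.24-fold higher level, with an adjusted p of 0.191 by limma. Probe set 1426807_at, a dimmer one, read 7.99, 7.84, 8.16 and 7.40 in knockout cells and 8.32, 8.26, 8.46 and 7.90 in rescued cells. It was also higher in all 4 lines, by 0.39 on the log2 scale (SE 0.05, a 1.31-fold level, adjusted p = 0.178 by limma). The third probe set, 1453528_at, was not: at 5.95 to 6.37 in knockout and 6.09 to 6.37 in rescued cells its mean difference was 0.05, and it was lower in line 6A.

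The call for Lta4h depended on the test. With array weights in limma the first 2 probe sets passed (adjusted p = 0.096 and 0.079 for 1434790_a_at and 1426807_at, against 0.517% of all probe sets called), and with a trend and robust fit they did as well (0.029 and 0.104, against 0.442%). SAM, the permutation statistic of the study's methods, paired by line, called these Lta4h probe sets and Ltb4r1 (0.473% of all probe sets were called higher), and SAM without pairing called Ltb4r1 alone of the members (0.0442%). When the SAM threshold was searched in steps of 0.005 in place of 0.05, a setting added after the counts under 0.05 were seen, paired SAM called 4 members, the fourth being Hpgds in the lower direction (2.73% of all probe sets, either direction), and unpaired SAM still called Ltb4r1 alone (0.0972%).

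Alox5ap and Ltc4s had smaller differences in the same direction. Alox5ap, whose protein FLAP presents arachidonate to 5-lipoxygenase, was among the brightest probe sets (97.4th percentile), at 12.57, 12.65, 12.58 and 12.68 in knockout 6A, 6B, 6D and 84 and 12.94, 12.86, 12.74 and 12.82 in rescued cells. Every rescued array was above every knockout array, as in 1.88% of all probe sets. The difference was 0.22 (SE 0.05, 95% interval 0.09 to 0.36, n = 4 lines), a 1.17-fold level, adjusted p = 0.318 by limma. Alox5ap is also on a list that the study drew from these arrays, so the same limit holds for its direction as for Ltb4r1. Ltc4s read 7.50, 7.48, 7.36 and 7.36 in knockout and 7.85, 7.66, 7.45 and 7.59 in rescued cells of the same lines. It was higher in each line, but the rescued 6D array lay within the knockout range, and the mean difference was 0.21 (SE 0.06, 1.16-fold, adjusted p = 0.323 by limma).

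Hpgds, the hematopoietic prostaglandin D2 synthase, ran the other way. Its probe set, among the dimmest 40% (33.6th percentile of mean level), read 5.92, 6.48, 6.01 and 7.02 in knockout 6A, 6B, 6D and 84 and 5.81, 5.88, 5.19 and 5.61 in rescued cells. All rescued arrays were below all knockout arrays, a separation seen in 1.57% of all probe sets. The difference was -0.73 on the log2 scale (SE 0.20, 95% interval -1.23 to -0.24, n = 4 lines), a 1.66-fold lower level, adjusted p = 0.328 by limma. The spread between lines was wide: the gap was -0.11 in line 6A and -1.41 in line 84, and without line 84 the mean was -0.51. The exact permutation test without pairing, two-sided, gave p = 0.0286, with the same limits as for Ltb4r1. The study lists this probe set too, so its direction is not independent evidence.

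Markers of other myeloid cells were uneven across the same arrays. The knockout 84 array, where Hpgds was highest, had the mast cell and basophil genes Cpa3 (a mast cell protease) at 10.10 against 5.55 to 5.75, and Gata2 (a transcription factor of these cells) at 10.65 against 7.98 to 8.30, in the other knockout arrays. Of the same list, Mcpt8 also stood apart there (10.64 against 7.22 to 7.55). Fcer1a (4.40 against 4.12 to 4.48) and Ms4a2 (5.36 against 5.02 to 5.34) hardly did. The platelet gene Pf4 was 9.36 there against 6.99 to 7.06, and Vwf 4.69 against 5.78 to 6.85. The megakaryocyte and platelet list (7 of 8 measured) had a mean of 6.03 to 7.28 in knockout and 6.08 to 6.69 in rescued cells, and none of its genes was higher in all 4 lines. The mast cell and basophil list (9 of 10 measured) had a mean of 5.89, 5.72, 5.90 and 7.37 in knockout 6A, 6B, 6D and 84 and 6.79, 5.90, 6.44 and 8.83 in rescued cells, highest in line 84 in both groups. Of its 9 measured genes 5 were higher in rescued cells in all 4 lines, where 12.0% of all probe sets were, and none was lower in all 4. On the rescued 84 array Cpa3 was 11.65 and Hpgds 5.61. The part of either list in the Hpgds value was not tested. The probe sets most like Hpgds over the 8 arrays were those of Ywhaq (r = 0.963), Rabep1 (r = 0.958) and Gsdme (r = 0.958), with 32 genes above r = 0.9, again a description only.

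The groups overlapped in the remaining members, and all but 1 of their probe sets, Ptger4 1424208_at, were among the dimmest 40%. Ptgs2, the inducible cyclooxygenase, had 2 probe sets at or below the 6.46th percentile of mean level. The first, 1417262_at, read 4.12, 4.02, 3.95 and 5.28 in knockout 6A, 6B, 6D and 84 and 3.53, 3.93, 3.84 and 5.05 in rescued cells, lower in all 4 lines by 0.26 on average (adjusted p = 0.367 by limma), and without line 6A by 0.15. The second, 1417263_at, had a difference of 0.01, so the 2 did not run together. Alox15, a lipoxygenase of eosinophils and macrophages, read 4.66, 4.80, 4.80 and 4.84 in knockout and 4.88, 4.75, 4.78 and 5.41 in rescued cells, a difference of 0.18 (95% interval -0.10 to 0.46), and of 0.05 without line 84. The highest value was the rescued 84 array, which also had the eosinophil granule genes Prg2 at 10.87 and Epx at 8.66, where Prg2 was 3.93 to 5.74 on the other 7 arrays. Of the same list, Prg3 was 9.32 on rescued 84 against 5.89 on knockout 84. The others moved little between these 2 arrays: Ccr3 was 3.75 against 3.90, Il5ra 5.81 against 5.70 and Siglecf 8.60 against 8.37. The mean of the eosinophil list (6 of 8 measured) was 4.69 to 5.66 in knockout and 4.81 to 7.83 in rescued cells, and 1 of its 6 measured genes was higher in all 4 lines. The part of this list in the Alox15 value was not tested.

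Ptger4, a prostaglandin E2 receptor, differed more between lines than with PICALM. Probe set 1424208_at read 6.55, 6.03, 5.82 and 8.20 in knockout 6A, 6B, 6D and 84 and 6.70, 5.77, 6.17 and 7.90 in rescued cells. The difference with PICALM was -0.02 (95% interval -0.32 to 0.29), whereas line 84 was 3.67-fold above the mean of the others. The dimmer 1421073_a_at, at 3.81 to 4.08 on all arrays, was lower in the 4 rescued arrays by 0.13 on the log2 scale (adjusted p = 0.381 by limma).

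**Figure D2:**
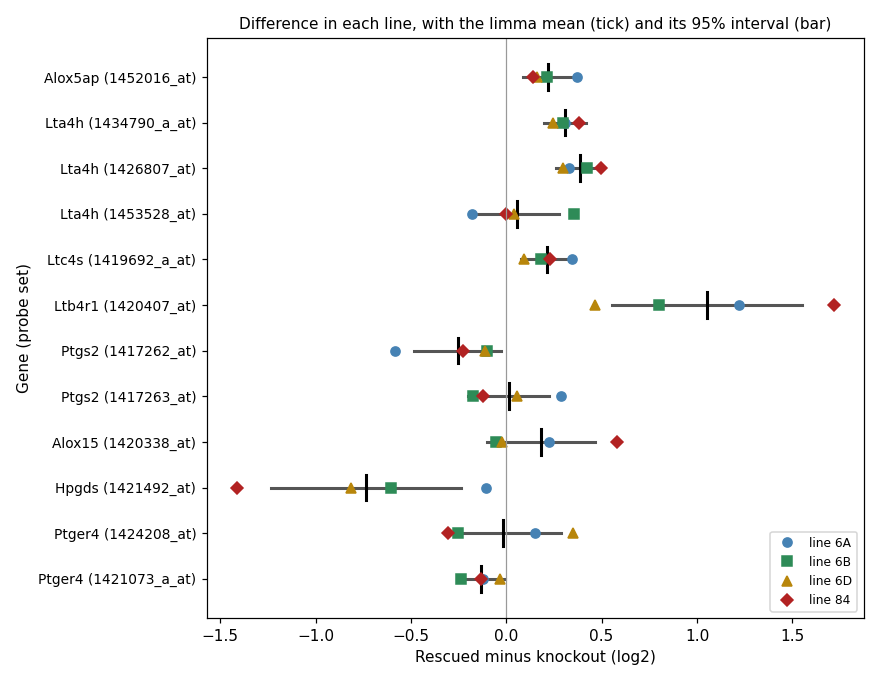
Rescued minus knockout on the log2 scale (x axis) for the 12 member probe sets (y axis). Points are the 4 lines, ticks the limma mean and bars its 95% interval. The intervals of the leukotriene members other than Lta4h 1453528_at lie above 0, and those of Hpgds, Ptgs2 1417262_at and Ptger4 1421073_a_at lie below 0.

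The lines themselves differed in 4 member probe sets by the limma F test (adjusted p of 0.006 for Ptger4 1424208_at, 0.009 for Ptgs2 1417262_at, 0.018 and 0.028 for Lta4h 1426807_at and 1434790_a_at), where 23.0% of all probe sets were called. Line 84 was 2.40-fold above the others in Ptgs2 1417262_at and 1.44-fold below them in Lta4h 1426807_at. Without line 84 none of the 4 was called. Each line had 1 array per group, so whether the effect of PICALM differs between lines cannot be tested.

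Of 59 other genes of arachidonate metabolism on a list, 48 had a probe set, read from the brightest one. None was called in the comparison with PICALM, 8 were higher in every line (16.7%, against 12.0% of all probe sets), 4 were lower in every line (8.33%, against 11.8%), and 36 were mixed. Their median difference was 0.05 on the log2 scale. At an unadjusted p under 0.05 there were 10 (20.8%, against 12.5% of all probe sets), 8 of them higher in rescued cells. This list too was chosen with earlier results of these data known, so its shares are a description. Paired SAM called 1, the prostaglandin E2 receptor Ptger2, which was lower in all 4 lines. It called 455 of all 22626 probe sets lower. With the finer SAM steps it also called the prostacyclin receptor Ptgir, higher in all 4 lines, where 2.73% of all probe sets were called in either direction.

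Genes that release or return arachidonate (14 of 18 measured) were higher in all 4 lines for 3 genes and lower for 2. Mgll, which breaks down monoacylglycerols, was higher by 0.51 (SE 0.13), at 6.51 to 8.06 in knockout and 7.31 to 8.85 in rescued cells. Daglb, a diacylglycerol lipase, was higher by 0.45 and Mboat7, which returns arachidonate to phosphatidylinositol, by 0.22. Of these, only for Mboat7 did the groups not overlap, with every rescued array above every knockout array, as in 1.88% of all probe sets.

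Among other lipoxygenases and leukotriene enzymes (11 of 13 measured) 2 were higher in all 4 lines. Mgst2, a glutathione transferase that can make leukotriene C4, had the largest mean difference at 0.76 (SE 0.31), but line 84 made much of it: the value was 0.34 without that line. Cyp4f18, which hydroxylates leukotriene B4, differed by 0.51 and was higher in 3 lines, with 0.27 without line 84 and 0.78 without line 6A. Mgst3 differed by -0.15, and by -0.06 without line 6A.

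Other prostanoid synthases (7 of 9 measured) differed little: Tbxas1, the thromboxane synthase, by 0.24 (0.12 without line 6A and 0.37 without line 6D), Prxl2b, a prostamide and prostaglandin F synthase, by 0.22, and Ptgds, the lipocalin-type prostaglandin D synthase, by 0.06. In breakdown and transport (5 of 7), Ptgr1, which inactivates leukotriene B4 and prostaglandins, differed by 0.46, and by 0.11 without line 84. Slco2a1, the prostaglandin transporter, differed by 0.22 and was higher in all 4 lines, and Hpgd, which oxidizes prostaglandins, by -0.09. Of other receptors (11 of 12), Fpr2, a receptor for lipoxin and formyl peptides, differed by 0.57 (0.29 without line 84), Ptgir by 0.38 and Ptgfr, the prostaglandin F receptor, by 0.19.

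**Figure D3:**
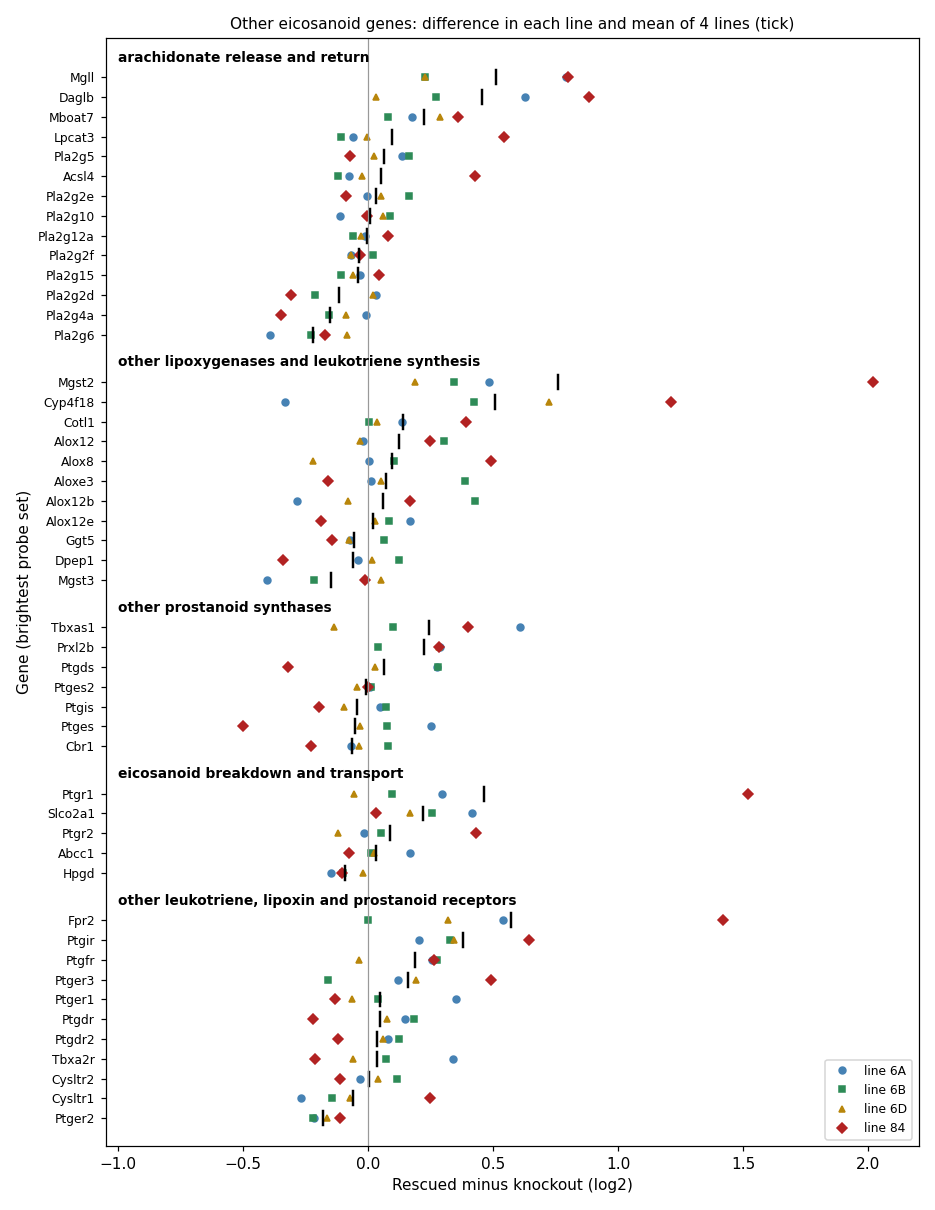
Rescued minus knockout on the log2 scale (x axis) for the 48 other eicosanoid genes (y axis), grouped by role. Points are the 4 lines and ticks the mean. Line 84 lies farthest to the right for Mgst2, Ptgr1, Fpr2 and Cyp4f18.

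Differences between lines were larger than differences with PICALM in several of these genes, and 20 of the 48 (41.7%) were called by the F test, against 23.0% of all probe sets. Hpgd was 13.68 to 13.83 on the 6 arrays of lines 6A, 6B and 6D and 8.84 and 8.74 in knockout and rescued line 84, a 31.0-fold lower level in line 84 (adjusted p = 1.15e-05 by limma). The receptors Ptger3 and Ptger2, named here after their values were seen, differed in opposite directions. Ptger3 was 7.19 and 7.68 in knockout and rescued line 84 against 4.21 to 4.55 elsewhere, and Ptger2 was 6.36 and 6.25 in line 84 against 7.40 to 8.35. Line 84 thus had low Hpgd and Ptger2 beside high Ptger3, and high Ptger4 and Ptgs2 by 1 of their 2 probe sets each. The other probe sets, Ptgs2 1417263_at and Ptger4 1421073_a_at, were 1.07-fold and 1.03-fold of the other lines in line 84.

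**Figure D4:**
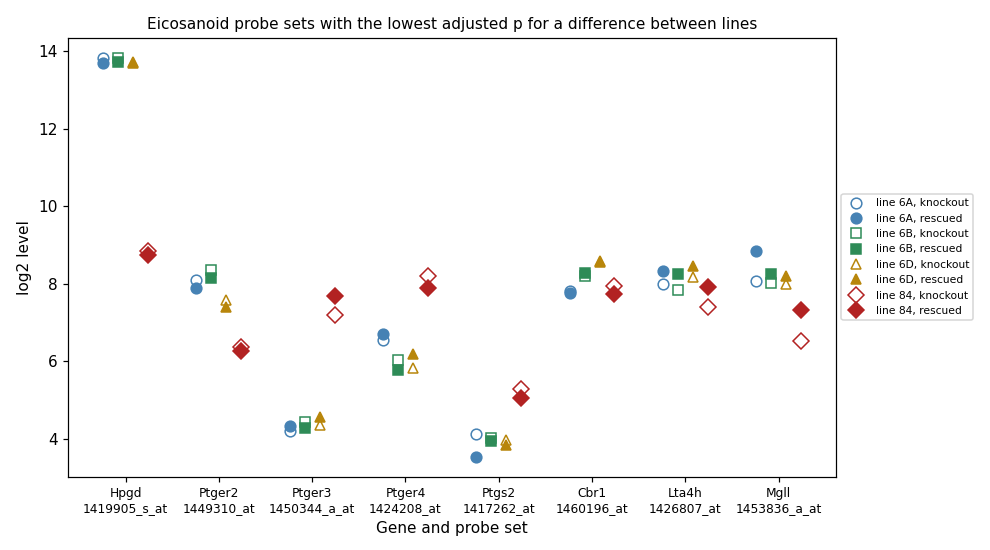
Log2 level (y axis) of the 8 member and other eicosanoid probe sets with the lowest adjusted p between lines (x axis), with open symbols for knockout and filled symbols for rescued arrays. Line 84 lies far below the other lines for Hpgd, and above them for Ptger3, Ptger4 and Ptgs2.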

How the data were processed

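RNA of 4 PICALM-rescued and 4 Picalm-knockout cultures was measured on Affymetrix arrays. The methods and the labels name different versions of the mouse array, and the 22690 probe sets, of which 64 were controls left out, fit the smaller version in the labels. The authors deposited log2 values normalized by RMA, which have no detection call, so dim probe sets may hold mostly background. The number of arrays limits the precision.

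limma 3.58.1 (R 4.3.3) was fitted to all 22626 probe sets with the line as a block, because each line gave a knockout and a rescued array, with Benjamini-Hochberg adjustment at 12.3%. Deviations of the 2 arrays of a line from their group means correlated at 0.62 to 0.81. In this fit the p values of the comparison with PICALM rest on how the rescued minus knockout difference varies between these lines. They do not measure the spread of levels between lines, which the block removes. limma also shrinks the variance of each probe set toward a value shared over all probe sets. This raised the degrees of freedom from 3 to 5.67. Where the 4 differences vary widely, as for Hpgds, the SE and interval are narrower than those 4 values alone would give. Alternatives were no block, quantile normalization, median centring, a filter on the dimmest 40%, array weights, trend and robust, 1 probe set per gene, leaving out each line, SAM with all 16 sign changes or 70 arrangements, the methods' t-test and a threshold of 0.05. SAM was written in Python 3.11.15 from the published statistic, with its threshold searched in steps of 0.05. Steps of 0.005 were tried after those counts had been seen and compared with other counts already known, and both are reported. Fits were tested on simulated data.

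Named were all member probe sets, the 3 genes per role with the largest absolute mean difference, and the 3 probe sets most like Ltb4r1 and Hpgds. The members and lists were chosen with earlier results of these data known. Upstream sequences are from RefSeq, for 6 of the 8 measured members.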

Additional observations from a re-analysis of the deposited data

Results flagged for a closer look

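Within a group of 4 arrays, the lowest or the highest array stood apart from the others (Dixon's test at 95%) in 9 of 54 groups of members and named genes, and in 8 of the 9 the array was of line 84. The test's nominal rate of 1 in 20 is no yardstick for this count. Named genes were picked for large mean differences, and the groups share the same 8 arrays. In the knockout group the line 84 array was high for Ptgs2 1417262_at at 5.28 and Ptgds at 8.38, and low for Mgll at 6.51, Mgst2 at 8.93, Ptgr1 at 10.7 and Hpgd at 8.84. In the rescued group line 84 was low for Mgst2 at 10.9 and Hpgd at 8.74. The remaining one was the rescued 6B array for Mgst3, high at 9.53.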

How the results depend on the processing

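No member and no other listed gene was called by limma with the line as a block, nor without the block (no replicate block, lowest adjusted p over all probe sets 0.239), where the median difference over members was 0.12, nor under any of quantile normalization, median centring, the dimmest-probe filter, 1 probe set per gene, the methods' t-test after Benjamini-Hochberg adjustment or a threshold of 0.05. At an unadjusted 0.05 the methods' t-test passed 3 of the 12 member probe sets and 1 of the 48 other genes. The share of all probe sets under this t-test is not given here, and for limma without the block it was 4.75%. As the lists were chosen with earlier results known, these counts are a description. Member calls numbered 2 with array weights, 2 with trend and robust, 3 with paired SAM and 1 with unpaired SAM. With SAM steps of 0.005, added after the counts under 0.05 were seen, they numbered 4 paired and 1 unpaired. Other listed genes called numbered 1 with paired SAM and 2 with those finer steps. Over all probe sets, paired SAM called 107 higher and 455 lower with steps of 0.05 and 137 and 481 with the finer steps, and unpaired SAM 10 and 35 against 22 and 39. None of these forms gave the number of probe sets that the study reports from SAM, whose pairing its methods do not name. The median over members was 0.26 without the dimmest 40% of probe sets, which left 6. Leaving out each line in turn gave 0 member calls each time and medians of 0.08 to 0.15. Lines differed in 0 to 4 member probe sets and 3 to 20 other genes, the lowest being without line 84. Differences near 0 turned sign. Leaving out a line gave Lta4h 1453528_at values of -0.0468 to 0.13, Ptgs2 1417263_at values of -0.0796 to 0.0735, Ptger4 1424208_at values of -0.14 to 0.0822 and Ptgds values of -0.00734 to 0.19, and array weights gave Ptger4 1424208_at 0.0187. The cause was not tested. The lack of a detection call limits what can be said of the 6 dimmest member probe sets, Hpgds among them.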
